A study of Mus musculus with 6 samples.

Results

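The genes described are 10 transcription factors of the T lineage and of T-cell acute lymphoblastic leukaemia (T-ALL): Tal1, Lmo2, Lyl1, Myb, Gata3, Runx1, Bcl11b, Tcf7, Lef1 and Ikzf1. They were chosen by name, with earlier results of these data known, and 9 of the 10 were measured among 19937 genes. No probe set carried the symbol Tcf7 alone in the annotation used here, so its RNA is not reported. The cells were the mouse T-ALL clone #483 of strain C57BL6, a single leukaemia clone, so the arrays do not sample differences between leukaemias. The 3 treated samples received 100 µM 4EGI-1 for 2 h, a compound that keeps eIF4E, the cap-binding protein, from joining the scaffold eIF4G. The titles call the 3 control samples untreated, but DMSO appears as the control in the protocol, and it is not settled which holds. RNA from the polysome fractions of a sucrose gradient was pooled and hybridised to 1 array per sample, and the design text calls the samples biological replicates. Values are log2 signals made with RMA, relative within an array, and they do not separate more ribosome-bound mRNA from more mRNA in the cell. Fewer cells of a type and less RNA per cell cannot be told apart.

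Several of these factors act as a group. TAL1 and LYL1 are basic helix-loop-helix proteins that bind DNA as partners of E proteins, and LMO2 is a LIM-domain bridge that joins TAL1 and E proteins to LDB1 and GATA factors. Their misexpression in thymocytes is a classical cause of T-ALL. In TAL1-positive human T-ALL, GATA3, RUNX1 and MYB occupy many of the same enhancers as TAL1. TCF-1 (from Tcf7), LEF1, BCL11B, GATA3, RUNX1 and the zinc finger protein Ikaros (from Ikzf1) steer normal thymocytes into the T lineage, and loss of BCL11B or Ikaros function is a recurrent lesion in T-ALL.

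Promoter sequence was looked up for the factors because they are known to bind regulatory DNA of one another; the arrays do not measure binding. RefSeq promoter windows (GRCm38.p6) were given for 9 of the 10 genes, 16 windows in all, and Lmo2 had none. The 250 bases before each annotated start were searched on both strands for the letters of sites that 5 of these proteins or their families are known to prefer. For the GATA family the letters were AGATAA, present in 9.99% of all 32851 windows and in 1 of the 16, upstream of Tal1. For the TCF and LEF family they were CTTTGA, present in 13.8% of all windows and in 4 of the 16. These lay upstream of Tal1, Lyl1, Bcl11b and Lef1. In Tal1 these 2 searched motifs overlap, as the unbroken run of capitals near the start of its sequence shows. For MYB the letters were AACTG, present in 39.1% of all windows and in 5 of the 16, upstream of 5 members. For TAL1 with an E protein they were CAGATG, present in 14.4% of all windows and in 0 of the 16. For RUNX proteins they were TGTGGT, present in 14.0% of all windows and again in 0 of the 16. The stretches of the helix-loop-helix pair Tal1 and Lyl1 and of Gata3 are shown 5′ to 3′ on the strand of the gene, with the searched letters in capitals. The Tal1 stretch is chr4:115056211-115056298 (+ strand), the Lyl1 stretch chr8:84701425-84701450 (+ strand) and the Gata3 stretch chr2:9878687-9878711 (- strand).
Tal1: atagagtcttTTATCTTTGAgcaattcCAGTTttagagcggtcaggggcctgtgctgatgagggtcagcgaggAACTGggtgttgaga
Lyl1: ggggtggggtTCAAAGctagaccaac
Gata3: gtttgggttgCAGTTtccttgtgct

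Before the comparison, the cells were set against cell type markers. The 5 measured T-cell markers (Cd3d, Cd3e, Cd3g, Thy1 and Cd28) had log2 signals of 8.66 to 12.51 over the 6 arrays. The 20 measured markers of B, myeloid, erythroid, stromal and endothelial cells had signals of 4.19 to 9.03, and the mean of 12 of them was under the table's median of 6.40. Array medians were 6.38 to 6.43, arrays correlated at 0.996 to 0.997 within a group and 0.988 to 0.990 between groups. With 6 arrays in all, their number limits the precision. Probe sets differ in affinity, so signals of different genes are not compared as levels. The probe sets of Tal1, Lmo2 and Lyl1 had signals of 6.28 to 7.02, near that median, and detection calls were not used here, so the arrays do not settle whether these 3 RNAs were above background.

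Relative to the rest of each array, the polysomal signal of most of these factors was close to its untreated value after 2 h of 4EGI-1. The total amount of polysomal RNA is not given by these values. Of the 9 measured genes 1 passed the test (limma, adjusted p under 0.05 over all genes), Lmo2, which was lower. Among all genes tested 22.9% passed, with 11.5% higher and 11.5% lower. The differences (4EGI-1 minus untreated) ran from -0.31 to 0.23 on the log2 scale, with a median of 0.00 against -0.03 over all genes. An absolute difference under 0.1 was found in 6 of the 9, against 43.0% of all genes, and one under 0.25 in 8 of the 9, against 76.0% of all genes. The groups did not overlap in 4 of the 9 (Lmo2, Myb, Gata3 and Ikzf1), with 2 higher and 2 lower, against 37.9% of all genes, 17.0% higher and 20.8% lower.

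**Figure D1:**
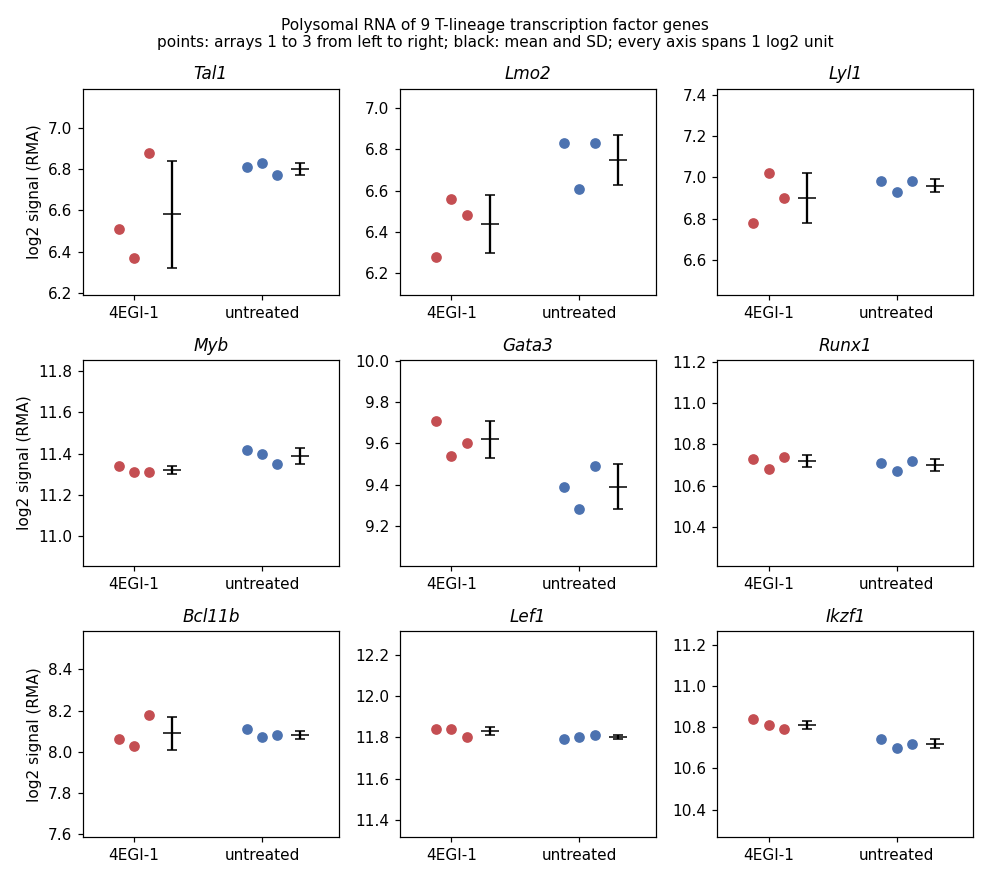
Log2 RMA signal of each measured factor on the 3 arrays of 4EGI-1-treated cells (red, left) and the 3 arrays of untreated cells (blue, right), with mean and SD (n = 3 each) in black; every vertical axis spans 1 log2 unit. Lmo2 lies lower and Gata3 higher with 4EGI-1 without overlap of the groups, and treated array 3 stands above the other treated arrays for Tal1.

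The TAL1 and LMO2 group comes first. Lmo2, the LIM-domain bridge of the complex, had log2 signals of 6.28, 6.56 and 6.48 in 4EGI-1-treated cells, against 6.83, 6.61 and 6.83 in untreated cells. All 3 treated arrays lay below all 3 untreated arrays, by a gap of 0.05 between the nearest values. The fitted difference was -0.31 ± 0.09 (SE; limma adjusted p = 0.0461), so that the signal fell by 19.6%, and its 95% interval reached from -0.53 to -0.10. The call was lost when 4EGI-1 replicate 1 (adjusted p = 0.126), 4EGI-1 replicate 3 (0.0800), untreated replicate 1 (0.143) or untreated replicate 3 (0.136) was left out, while the difference stayed between -0.39 and -0.23 whichever array was left out.

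Tal1, which encodes the helix-loop-helix oncoprotein, had log2 signals of 6.51, 6.37 and 6.88 in 4EGI-1-treated cells and 6.81, 6.83 and 6.77 in untreated cells. The untreated arrays were within 0.06 of each other, while treated arrays 1 and 2 lay below all of them and treated array 3 above all of them. The difference of -0.22 ± 0.12 (SE) did not pass (limma adjusted p = 0.260). Without 4EGI-1 replicate 3 it was -0.37 and passed (adjusted p = 0.0156), so 1 array decides this call. Lyl1, the relative of Tal1, had 6.78, 7.02 and 6.90 in treated cells and 6.98, 6.93 and 6.98 in untreated cells. Its groups overlapped, and the difference was -0.06 ± 0.07 (limma adjusted p = 0.619; 95% interval -0.23 to 0.11). In the RefSeq gene table of GRCm38.p6, Lyl1 overlaps Nfix, a nuclear factor I gene with its own probe set, which was lower at -0.41 ± 0.07 (limma adjusted p = 0.00403).

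Of the factors that share enhancers with TAL1 in human T-ALL, Gata3 was the one with the largest difference. Gata3, a zinc finger factor required for T-cell commitment, had log2 signals of 9.71, 9.54 and 9.60 in 4EGI-1-treated cells and 9.39, 9.28 and 9.49 in untreated cells. All treated arrays were above all untreated arrays, by a gap of 0.04. Its difference of 0.23 ± 0.08 (SE; 95% interval 0.05 to 0.41) missed the threshold (limma adjusted p = 0.0760). At the same size of 0.23 it passed among genes at or above the table's median (limma adjusted p = 0.0225). It also passed with a trended robust variance prior (0.0164) and after quantile normalization (0.0483). With the replicate number as a block Gata3 did not pass (0.0772), nor when any 1 array was left out (0.0619 to 0.2165). Leaving out 1 array gave differences of 0.17 to 0.28. Runx1, the DNA-binding subunit of core binding factor, had 10.73, 10.68 and 10.74 in treated cells and 10.71, 10.67 and 10.72 in untreated cells. These groups overlapped almost fully, and the difference was 0.02 ± 0.06 (limma adjusted p = 0.887), with a 95% interval of -0.12 to 0.15. Myb, which encodes the proto-oncoprotein c-Myb, had 11.34, 11.31 and 11.31 in treated cells and 11.42, 11.40 and 11.35 in untreated cells. The treated arrays were all lower, by a gap of 0.01, but the difference of -0.07 ± 0.06 did not pass (limma adjusted p = 0.459; 95% interval -0.20 to 0.06).

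Lef1, Bcl11b and Ikzf1, factors of T-lineage commitment, all differed by 0.10 or less and did not pass. Lef1, an HMG-box factor that acts with β-catenin, had log2 signals of 11.84, 11.84 and 11.80 in 4EGI-1-treated cells and 11.79, 11.80 and 11.81 in untreated cells. All 6 arrays lay within 0.05 (difference 0.03 ± 0.06 SE, limma adjusted p = 0.797). Bcl11b, which closes off other lineages in committed thymocytes, had 8.06, 8.03 and 8.18 in treated cells and 8.11, 8.07 and 8.08 in untreated cells, and its difference was 0.00 ± 0.06 (limma adjusted p = 0.971). Ikzf1, which encodes Ikaros, had 10.84, 10.81 and 10.79 in treated cells and 10.74, 10.70 and 10.72 in untreated cells. Here the groups did not overlap, with a gap of 0.06, but the difference was only 0.10 ± 0.06 (limma adjusted p = 0.288). The 95% intervals bound the change in relative signal that may have been missed. They lay between -0.25 and 0.25 for Lyl1, Myb, Runx1, Bcl11b, Lef1 and Ikzf1. Whether Lyl1 RNA was above background is not settled, so its interval bounds the signal and not the RNA. For Lef1 the interval allows a change of relative polysomal signal of -6.86% to 11.4%, and for Runx1 of -7.72% to 10.8%.

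**Figure D2:**
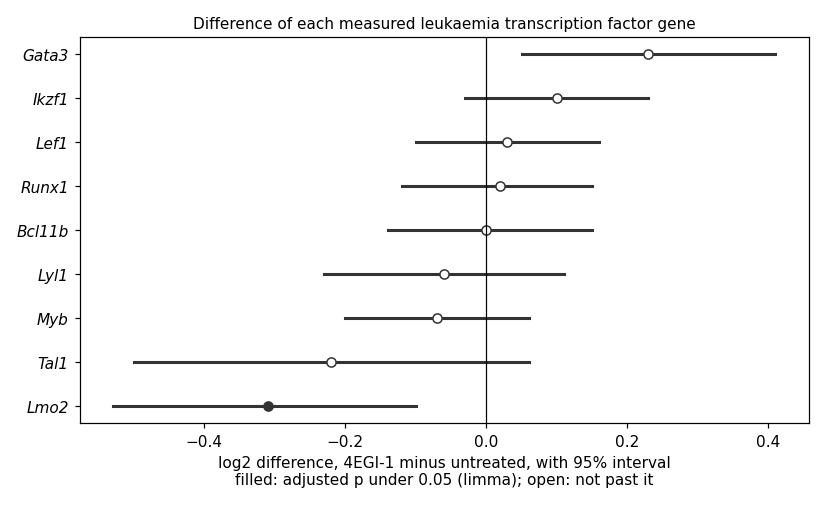
Log2 difference (4EGI-1 minus untreated, horizontal axis) of each measured factor with its 95% interval from limma (n = 3 arrays each); the filled point passed an adjusted p of 0.05. Lmo2 at -0.31 is the filled point, Gata3 at 0.23 is the other gene whose interval leaves out 0, and Tal1 has the widest interval.

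By profile over the 6 arrays, the genes most like Lmo2 among 19936 others were Cnksr3 (Pearson r = 0.993) and Pglyrp3 (0.990). Those most like Gata3 were Nol11 and Kif1b (0.995 each), and those most like Tal1 were Dpp3, with r rounding to 1, and Kcnj11 (0.992). These values describe 6 points picked from many genes, and the 6 points share the 2 groups and their arrays. Dpp3 and Kcnj11 had the Tal1 pattern of a treated array 3 above the other treated arrays, at 8.32 against 8.07 and 7.97 for Dpp3 and at 6.72 against 6.38 and 6.16 for Kcnj11.

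Genes that work with the factors were grouped into 5 lists. These were E-protein and LMO2 partners with their inhibitors, paralogues of the factors, other T-lineage and T-ALL factors, cofactors, and known T-cell and T-ALL targets. Together they hold 101 measured genes, of which 12 were higher and 16 lower, so that 27.7% passed, against 22.9% of all genes. The lists were chosen with earlier results of these data known, so their counts and shares are descriptions and not tests.

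**Figure D3:**
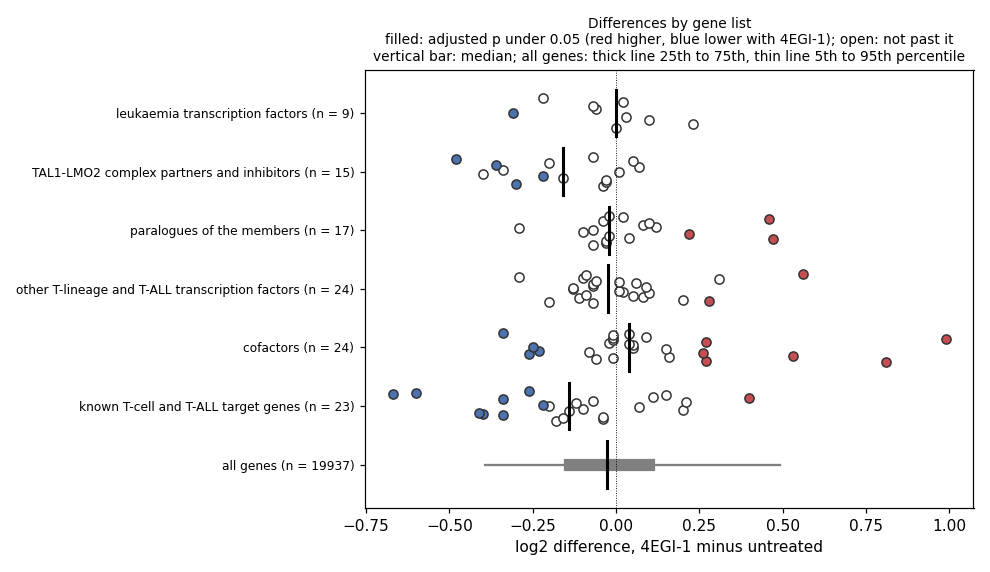
Log2 difference (4EGI-1 minus untreated, horizontal axis) of every measured gene in each list (1 point per gene, filled where the limma adjusted p is under 0.05, vertical bar at the median), with the 5th to 95th percentile of all genes below. The leukaemia factors lie between -0.31 and 0.23, while cofactors reach 0.99 and target genes -0.67.

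In the list of TAL1 and LMO2 partners and inhibitors the genes that passed were all lower. Of 15 measured 4 fell and 0 rose, so that 26.7% passed, against 22.9% of all genes, with 11.5% lower. The median difference was -0.16, against -0.03 over all genes. The list also holds E-protein inhibitors and Cbfb, so not all of the 4 are partners of the complex. Tcf3, which encodes the E proteins E12 and E47 that pair with TAL1 and LYL1, had log2 signals of 8.47, 8.50 and 8.52 in 4EGI-1-treated cells and 8.93, 8.98 and 9.01 in untreated cells. The groups were far apart relative to their spread, and Tcf3 fell by 0.48 ± 0.06 (SE; limma adjusted p = 0.000799). The other E protein genes did not pass: Tcf12 (HEB) differed by 0.05 ± 0.06 and Tcf4 (E2-2) by -0.07 ± 0.07. The per-array log2 ratio of Tcf3 over Tcf12 was -3.86 to -3.78 with 4EGI-1 and -3.35 to -3.24 untreated, without overlap. An exact two-sided permutation test of this ratio gave p = 0.1, the smallest value 3 against 3 arrays allow. It was 0.125 adjusted over 5 gene pairs chosen after values were seen. The other pairs did not overlap either, apart from Tal1 over Lyl1 (exact permutation p = 0.6).

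Ssbp3, a single-stranded DNA binding protein that stabilises LDB1, also fell, by 0.36 ± 0.06 on the log2 scale (SE). Cbfb, which encodes the partner subunit of RUNX1, fell by 0.30 ± 0.07. Cbfb did not pass without 4EGI-1 replicate 3, untreated replicate 2 or untreated replicate 3, with adjusted p values of 0.0581 to 0.0642. Id2, an inhibitor of E proteins, fell by 0.22 ± 0.07 (limma adjusted p = 0.0451), a call lost without any 1 array but 4EGI-1 replicate 1 (adjusted p of 0.0896 to 0.131), while Id3, with the difference -0.40 ± 0.13, did not pass (0.0550). Ldb1, which nucleates the complex with LMO2, differed by 0.01 ± 0.06 (limma adjusted p = 0.932). Without 4EGI-1 replicate 3 or without untreated replicate 2 the list had 2 genes past the test.

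Paralogues of the factors that passed were higher, 3 of 17. Thus 17.65% passed, against 22.9% of all genes in either direction and 11.5% of all genes higher. Ikzf2, which encodes Helios of the Ikaros family, had log2 signals of 8.84, 8.69 and 8.76 in 4EGI-1-treated cells and 8.37, 8.28 and 8.22 in untreated cells. It rose by 0.47 ± 0.07 (SE, limma adjusted p = 0.00182). The per-array ratio of Ikzf2 over Ikzf1 did not overlap between the groups (exact permutation p = 0.1, the smallest value possible). This pair was chosen after its values were seen, so the ratio adds no separate test. Ikzf5, of the same family, rose by 0.22 ± 0.06 and lost its call without any 1 of 5 arrays (all but untreated replicate 2). Tal2 rose by 0.46 ± 0.12 from a probe set near the low end of the table, at 5.53 to 5.76 with 4EGI-1 and 4.89 to 5.31 untreated, and lost its call without 4EGI-1 replicate 1 or 2. Without either of these arrays the list had 1 gene past the test.

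Of 24 other T-lineage and T-ALL factors 2 rose and 0 fell, so that 8.33% passed, against 22.9% of all genes. Zeb1, a zinc finger repressor that is a tumour suppressor in T-cell leukaemia, had log2 signals of 11.44, 11.35 and 11.45 in 4EGI-1-treated cells and 10.85, 10.81 and 10.91 in untreated cells. It rose by 0.56 ± 0.06 (SE; limma adjusted p = 0.000559). Ets1, a factor of thymocyte differentiation, rose by 0.28 ± 0.06 (0.0107). Without untreated replicate 1 the count was 4.

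Cofactors moved in both directions, with 6 of 24 higher and 4 lower, beside 11.5% of all genes higher and 11.5% lower. The largest rises were in ATP-dependent chromatin remodellers. Smarca4, which encodes the BAF complex ATPase BRG1, had log2 signals of 11.38, 11.21 and 11.32 in 4EGI-1-treated cells and 10.25, 10.34 and 10.36 in untreated cells, and rose 1.98-fold (0.99 ± 0.07 on the log2 scale, SE; limma adjusted p = 8.3e-05). Chd4, the ATPase of the NuRD complex that works with Ikaros and BCL11B, had 11.00, 10.98 and 11.10 in treated cells and 10.18, 10.25 and 10.21 in untreated cells, and rose 1.76-fold. Ep300, the acetyltransferase that binds c-Myb, rose by 0.53 ± 0.06. Subunits of NuRD did not move together: Gatad2b rose by 0.26 ± 0.06, Gatad2a fell by 0.26 ± 0.06 and the deacetylase gene Hdac2 by 0.23 ± 0.06, while Mta2 (0.05), Mbd3 (0.05), Rbbp4 (0.04), Rbbp7 (-0.02) and Hdac1 (-0.08) did not pass. Zfpm1, the GATA cofactor FOG-1, fell by 0.34 ± 0.06. The calls of Gatad2a, Gatad2b and Hdac2 were lost without 4EGI-1 replicate 3, that of Gatad2b also without untreated replicate 2, that of Hdac2 also without 4EGI-1 replicate 2, without any 1 untreated array or after quantile normalization (-0.17, adjusted p = 0.0589), and the list count was 5 without untreated replicate 2.

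Genes listed as known T-cell and T-ALL targets were mostly lower where they passed. The list does not give which factor acts on each gene or in which direction. Of the 23 genes 8 fell and 1 rose, and 14 did not pass, beside 11.5% of all genes lower and 11.5% higher. The median of the list was -0.14, against -0.03 over all genes. Trib2, a pseudokinase gene activated by TAL1 in human T-ALL, had log2 signals of 7.63, 7.59 and 7.71 in 4EGI-1-treated cells and 8.37, 8.35 and 8.24 in untreated cells, and fell by 0.67 ± 0.07 (SE; limma adjusted p = 0.00028). Ubash3a, a T-cell receptor signalling suppressor, fell by 0.60 ± 0.06, and Cd3d, a subunit of the T-cell receptor complex, by 0.40 ± 0.06. Rag1, the recombinase gene, went the other way with a rise of 0.40 ± 0.06. A change 2 h after treatment in polysomal RNA of a target was not separated from a change in its transcription.

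**Figure D4:**
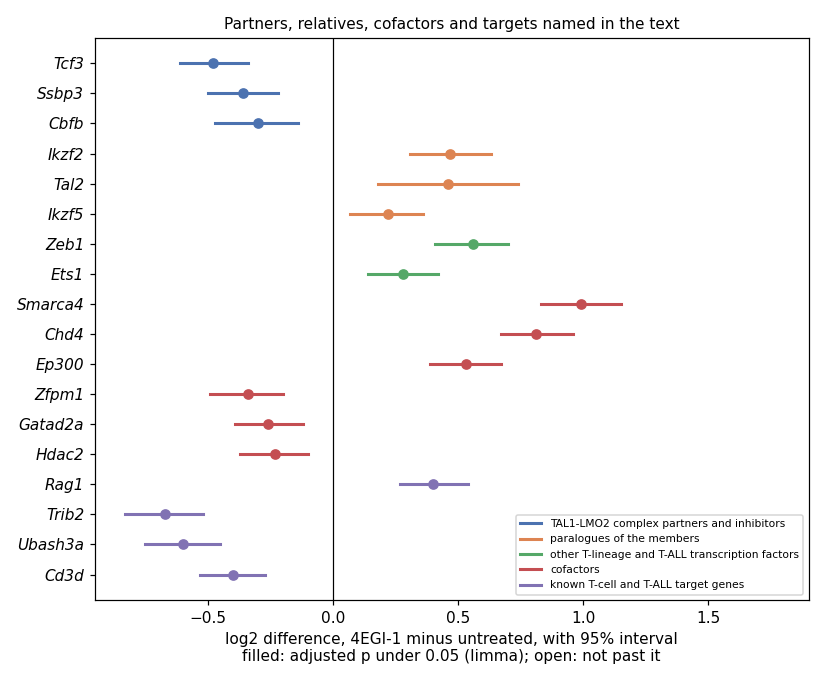
Log2 difference (4EGI-1 minus untreated, horizontal axis) with 95% interval from limma (n = 3 arrays each) of the partners, paralogues, other factors, cofactors and targets named by rule, coloured by list. Smarca4 and Chd4 are farthest to the right, at 0.99 and 0.81, and Trib2 farthest to the left, at -0.67.

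Of the 5 measured T-cell markers, Cd3d, Cd3e, Cd3g and Cd28 are also in the list of target genes. Cd3d, Cd3e and Cd28 fell, beside 11.5% of all genes lower, and 0 rose, while Cd3g (-0.14) and Thy1 (-0.19) did not pass. The summed log2 signal of the 5 was 55.8 to 56.1 in 4EGI-1-treated cells and 57.3 to 57.5 in untreated cells. Of the 20 markers of other cell types 0 passed in limma, against 22.9% of all genes. An unadjusted limma p under 0.05 was found in 2 of the 20, against 6604 of all 19937 genes. The summed log2 signal of B-cell markers was 27.0 to 27.6 with 4EGI-1 and 27.6 to 28.1 untreated, and that of myeloid markers 34.3 to 34.6 with 4EGI-1 and 34.8 to 35.0 untreated. Erythroid markers summed to 19.7 to 20.3 with 4EGI-1 and 19.8 to 20.4 untreated, and stromal and endothelial markers to 40.8 to 41.2 with 4EGI-1 and 41.0 to 41.7 untreated. Their part in the results was not tested.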

How the data were processed

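Polysomal RNA of 3 4EGI-1-treated and 3 untreated samples was measured on 1 array each. The authors deposited log2 signals, computed by RMA per the submitters' processing notes, whose version is not given in the sources used here. Amplification was with a whole-transcript system, per the labels' protocols. Of 34760 probe sets, 21640 have 1 gene symbol in the platform annotation, updated by Entrez identifier (21553 matched) through the RefSeq table of GRCm38.p6. Of several probe sets for a symbol, the brightest on average was kept, giving 19937 genes; each of the 9 measured factors has 1 probe set. Differences were fitted on all genes with lmFit and eBayes (limma 3.58.1, R 4.3.3), two-sided, without a filter, with Benjamini-Hochberg adjustment and a threshold of 0.05; ± in differences is the moderated SE. Scripts were tested on simulated data. Members and lists were chosen with earlier results of these data known, and no list was tested as a set. Besides all factors, the rule named up to 3 genes per list and direction by smallest adjusted p, and the 2 genes closest by Pearson r to each of the 3 factors with the smallest adjusted p; other genes, such as Tcf12, Id2, Id3, Ldb1 and the NuRD subunits, were chosen after their values were seen. Gene pairs were compared with exact permutation tests (scipy 1.17.1). The limma p-values set each group difference against the spread between these arrays, moderated over all genes. Alternatives were a replicate block, a filter at the table's median, other probe set rules, quantile normalization, array weights, a trended robust prior, leaving out each array and a threshold of 0.01.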

Additional observations from a re-analysis of the deposited data

How the results depend on the processing

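The count over all genes, the counts of the factors and of the 5 lists, and the differences of the factors and of most other genes named from the lists were recomputed under 14 alternatives, except that Tal2 has no value with the filter at the table's median, which leaves it out. Gene-pair ratios, profile likeness and the markers were not recomputed, apart from Cd3d. The count over all genes was 4573 of 19937 and 2736 at an adjusted p under 0.01. With the filter at the table's median it was 5143 of 11059 genes. Of 19937 genes it was 4744 with quantile normalization, 5407 with the trended robust prior and 4071 with the replicate block. Leaving out 1 array gave 3546 to 3892 over all genes. The count of factors past the test was 1; it was 2 with the filter at the table's median, with quantile normalization and with the trended robust prior (Lmo2 and Gata3), 0 with the replicate block and at 0.01, and 0 to 1 when 1 array was left out (Tal1, not Lmo2, without 4EGI-1 replicate 3). At 0.01 the counts were 2 for partners and inhibitors, 1 for paralogues, 1 for other factors and 4 for cofactors. With the replicate block they were 1 for paralogues and 4 for other factors. Other factors numbered 5 of the 13 that the filter kept. They numbered 5 of 24 with quantile normalization and with the trended robust prior. Leaving out 1 array gave 2 to 4 partners and inhibitors, 1 to 3 paralogues, 2 to 4 other factors, 5 to 8 cofactors and 6 to 8 targets. Bcl11b, at 0.00, ranged from -0.04 (without 4EGI-1 replicate 3) to 0.04 when 1 array was left out, and was -0.003 without untreated replicate 2. The replicate block left Lmo2 at -0.31 with an adjusted p of 0.0875. Same-numbered samples correlated at 0.0609, 0.107 and -0.0214 in their deviations from the group means, and differently numbered ones at -0.109 to 0.0553. With 3 arrays per group these values do not settle whether the numbers pair the samples. The causes of these shifts were not tested. Depth has no counterpart here beyond signal over background, which was not assessed for the dim probe sets of Tal1, Lmo2 and Lyl1.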
